A study of Mus musculus with 12 samples.

Results

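The calcium cycling genes described here are 10 genes, Ryr2, Atp2a2, Pln, Casq2, Slc8a1, Trdn, Jph2, Asph, Hrc and Camk2d, taken by symbol from a table of 33641 gene symbols. They hold 81 of its 105129 transcript rows, and their values were read both summed per gene and per transcript. All 10 passed the filter on low values in the fit of 13158 genes. The 12 hearts came from male wild-type mice of the C57BL/6 strain, 3 for each of these groups: sham operation with vehicle, sham operation with prednisone, myocardial infarction (MI) with vehicle, and MI with prednisone. Prednisone, a synthetic glucocorticoid, was injected intraperitoneally at 1 mg/kg every week, at the time of lights-on. Dosing began 2 weeks after the operation and lasted 6 weeks, and hearts were collected 24 hours after the final dose. The mice were about 10 weeks old when injected and about 16 weeks old by the age given for the samples, no allele was modified in any group, and every mouse had surgery. The tissue is labelled only as myocardium, so the distance of each piece from the infarct is unknown. The deposited unit is TPM, a transcript's abundance as a share of its library, scaled to 1000000, and it carries no read depth.

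In a heart muscle cell each beat starts with calcium that enters through sarcolemmal channels and opens the ryanodine receptor, which releases more calcium from the sarcoplasmic reticulum. The SERCA pump returns calcium to the reticulum under the restraint of phospholamban, and the sodium-calcium exchanger carries the remainder out of the cell. Lower SERCA and altered ryanodine receptor function are textbook features of failing myocardium, and CaMKII is the kinase that phosphorylates several of these proteins.

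Sequences are shown for 3 members whose transcripts differed in how their levels changed. Atp2a2, the SERCA2 pump (GRCm38 chr5:122453513-122502225, minus strand), has 2 main transcripts that share 2983 coding bases and then end differently. The last 15 shared coding bases are in lower case and each transcript's own coding end, stop codon included, is in capitals. Atp2a2-202 (chr5:122454291-122454304) has 14 bases of its own and encodes 998 residues, the end of the cardiac form SERCA2a, and Atp2a2-201 (chr5:122457151-122457302) has 152 bases of its own and encodes 1044 residues, the longer end of the widely expressed form SERCA2b.
Atp2a2-202: acctggaacaacccgCAATACTGGAGTAA
Atp2a2-201: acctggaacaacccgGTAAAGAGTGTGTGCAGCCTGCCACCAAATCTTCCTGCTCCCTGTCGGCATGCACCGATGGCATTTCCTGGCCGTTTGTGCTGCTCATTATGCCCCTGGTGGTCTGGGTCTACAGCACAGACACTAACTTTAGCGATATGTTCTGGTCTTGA

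Pln encodes phospholamban, the SERCA inhibitor (chr10:53337667-53345987, plus strand). Its 4 transcripts above 5% of the gene (Pln-201, Pln-204, Pln-205 and Pln-206) differ outside the coding sequence and share this 1 reading frame of 159 bases (chr10:53343864-53344022), shown with start and stop codon in capitals, so that no shift among them alters the protein that is encoded.
Pln: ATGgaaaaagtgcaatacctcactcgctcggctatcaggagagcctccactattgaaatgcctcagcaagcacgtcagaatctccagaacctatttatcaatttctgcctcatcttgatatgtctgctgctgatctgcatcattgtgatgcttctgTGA

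Camk2d encodes the delta chain of CaMKII (chr3:126596302-126846326, plus strand). Camk2d-221 has 3 coding stretches that the most abundant coding transcript, Camk2d-202, lacks, all shown in capitals because they mark a row listed at 0 in 2 of the 3 MI prednisone hearts. They lie at chr3:126771774-126771846 (73 bases), chr3:126805857-126805916 (60 bases) and chr3:126841485-126841548 (64 bases), as the GENCODE models give them. Camk2d-202 in turn has another stretch of 73 bases (chr3:126770785-126770857), also shown, and 1 further coding base that Camk2d-221 lacks. All sequences are from the GRCm38 genome with GENCODE M21 transcripts.
Camk2d-221, 73 bases: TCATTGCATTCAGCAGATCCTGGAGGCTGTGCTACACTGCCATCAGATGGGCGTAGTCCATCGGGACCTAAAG
Camk2d-221, 60 bases: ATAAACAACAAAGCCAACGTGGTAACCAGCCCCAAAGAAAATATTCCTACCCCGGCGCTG
Camk2d-221, 64 bases: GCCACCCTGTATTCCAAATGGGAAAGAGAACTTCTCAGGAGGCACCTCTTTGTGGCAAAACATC
Camk2d-202, 73 bases: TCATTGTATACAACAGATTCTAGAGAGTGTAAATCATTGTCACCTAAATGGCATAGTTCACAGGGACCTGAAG

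The libraries did not all behave alike, and 3 facts about them bear on the values below. The third MI vehicle library had 14307 genes at 1 TPM or more against 11690 to 12772 in the others, and its median gene lay 0.74 (log2) above the sham vehicle mean. In the 3 MI prednisone libraries the deviation of a gene from the sham vehicle mean ran against transcript length, with Spearman correlations across genes of -0.40, -0.41 and -0.27 against -0.12 to 0.24 in the other 9. The part of this trend in the values below was not tested. The third MI prednisone library lay between the other 2 and all remaining hearts in Slc8a1 and Camk2d only, and in the other 8 members it fell within the range of the other groups. Mitochondrially encoded RNA took 21.6% to 42.0% of a library. The 12 cardiomyocyte genes used as a tissue check, such as Tnnt2 and Myh6, were all detected, with a sum of 32950 to 52220 TPM. They are called structural throughout, although Pgam2 among them encodes an enzyme. Fibroblast markers summed to 890 to 1150 TPM after MI with vehicle against 305 to 516 in the other 3 groups, and macrophage markers to 515 to 1203 against 224 to 478. None of these marker genes was at 0 in all samples, and in bulk tissue fewer cells of a type and less RNA per cell cannot be told apart. The labels number the mice 1 to 3 in each group.

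Per length, phospholamban and the SERCA pump were by far the most abundant of the 10 RNAs in every group. In sham vehicle hearts Pln stood at 2728 ± 182 TPM and Atp2a2 at 2588 ± 183 TPM (SD, n = 3), with overlapping ranges. The luminal calcium-binding proteins Hrc at 356.5 ± 3.51 TPM and Casq2 at 326.6 ± 15.9 TPM followed, and then came Trdn at 166, Jph2 at 115, Asph at 80.6, Ryr2 at 67.9, Slc8a1 at 48.6 and Camk2d at 46.2 TPM. Neighbours in this order did not overlap except Pln with Atp2a2, Asph with Ryr2, and Slc8a1 with Camk2d. The order changed after MI: with vehicle, Casq2 at 376 TPM stood above Hrc at 254 TPM without overlap, and Ryr2 at 42.9 TPM came last, overlapping Camk2d. With prednisone after MI, Slc8a1 came last at 11.5 TPM, its range overlapping that of Camk2d at 24.7 TPM.

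**Figure D1:**
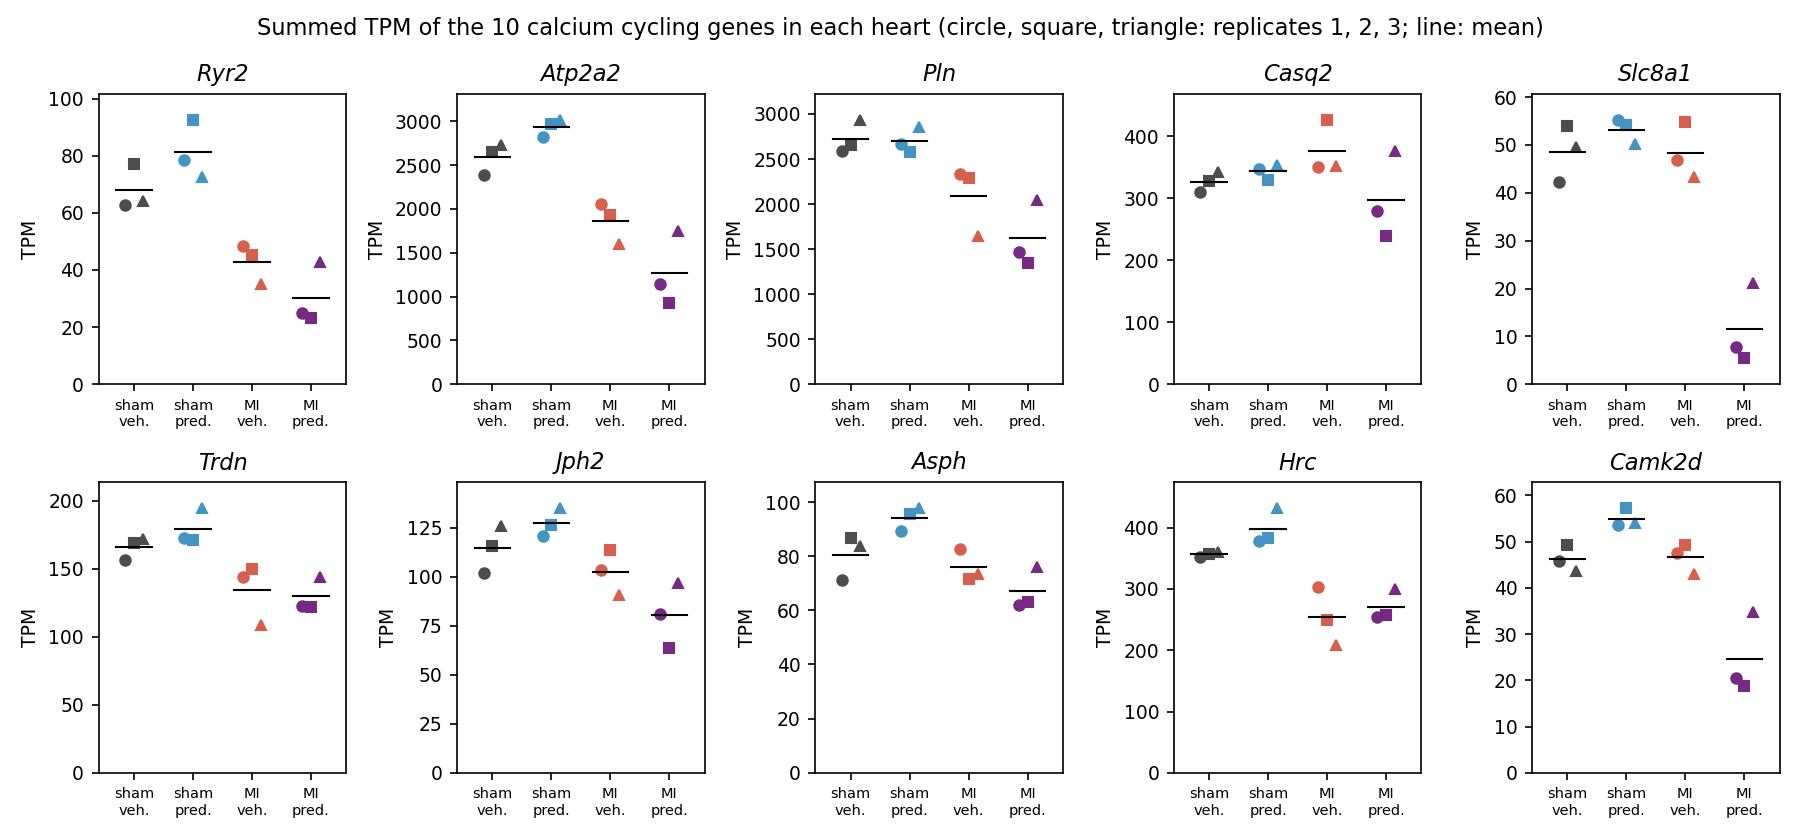
Summed TPM (y axis, linear, from 0) of each of the 10 genes in the 12 hearts by group (x axis), with circles, squares and triangles for replicates 1, 2 and 3 and a line at the group mean. Slc8a1 and Camk2d are lower in all 3 MI prednisone hearts than in any other heart, while Casq2 overlaps between most groups.

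The first comparison asked what MI did to these genes without the drug. Hrc, the histidine-rich calcium-binding protein of the reticulum lumen (chr7:45335290-45338974, plus strand), fell after MI with vehicle. It read 353, 357 and 360 TPM in the sham vehicle hearts and 303, 250 and 208 TPM in the MI vehicle hearts. The groups did not overlap, and the log2 change of TPM + 1 was -0.51 (SE 0.13, limma adjusted p = 0.0302). It was the only 1 of the 10 genes called in this comparison at an adjusted p under 0.05, against 0.904% of all tested genes called lower, and the call was lost without MI vehicle replicate 2 or 3 or without any 1 of the 3 sham vehicle hearts.

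Ryr2, the release channel (chr13:11553102-12106945, minus strand), was at 62.6, 77.0 and 64.1 TPM in sham vehicle hearts and at 48.5, 45.3 and 35.0 TPM in MI vehicle hearts. Its ranges did not overlap either, but the change of -0.66 (SE 0.21) missed the threshold (limma adjusted p = 0.0562). Atp2a2 stood at 2382, 2651 and 2731 TPM against 2057, 1937 and 1601 TPM, which came to -0.48 on the log2 scale (SE 0.19, limma adjusted p = 0.091), and Pln at 2593, 2656 and 2934 against 2334, 2288 and 1644 TPM, a change of -0.40 (SE 0.17, limma adjusted p = 0.102). In 5 of the 10 genes (Hrc, Ryr2, Atp2a2, Pln and Trdn) every MI vehicle heart lay below every sham vehicle heart, where 4.17% of all genes did. In Casq2, calsequestrin, the main calcium buffer of the lumen (chr3:102086415-102146514, plus strand), every MI vehicle heart lay above: 310, 327 and 342 TPM in sham and 351, 426 and 351 TPM in MI, with a change of 0.20 (SE 0.15, limma adjusted p = 0.295). That placement was shared by 40.8% of all genes.

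These changes stand against a general shift of the TPM scale. The median of all genes was 0.39 higher after MI with vehicle, and all 10 members lay below that median, Slc8a1 (-0.01), Camk2d (0.01), Asph (-0.08) and Jph2 (-0.16) included, with a members' median of -0.24. When the libraries were rescaled by median ratios all 10 log2 changes were below 0, with Hrc at -0.96 (limma adjusted p = 0.0466) still the 1 gene called. When they were centred on the structural cardiomyocyte genes instead, 5 of 10 were below 0 and none was called, with 2 at an unadjusted p under 0.05. The shares of all genes called, or at that unadjusted threshold, under these scalings are not given here.

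The second comparison set MI against sham among prednisone-treated mice, and here 9 of the 10 genes fell, against 14.1% of all tested genes. Every heart of one group lay below every heart of the other in the same 9 genes, where 32.2% of all genes did so. The members' median log2 change was -0.72 beside -0.06 over all genes, and all 10 values stayed below 0 under each of the scalings tried. The sodium-calcium exchanger Slc8a1 fell most, by 2.33 on the log2 scale (SE 0.34, limma adjusted p = 0.00213), and Ryr2 fell by 1.44 (SE 0.21, limma adjusted p = 0.00216). Atp2a2 fell by 1.26 (SE 0.19, limma adjusted p = 0.00235) and Camk2d by 1.17 (SE 0.18, limma adjusted p = 0.00252). These 4 were also called after median-ratio rescaling and after a correction for transcript length, where the other 5 were lost. The shares of all genes called lower under these scalings are not given here. The smaller falls were in Pln (-0.76), Jph2 (-0.67), Hrc (-0.56), Asph (-0.49) and Trdn (-0.47), with limma adjusted p from 0.0113 to 0.0304. Only 5 genes were called without MI prednisone replicate 1, without replicate 2, or without sham prednisone replicate 3. Casq2 was the exception at -0.23 (SE 0.15, limma adjusted p = 0.328).

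In values, Ryr2 stood at 78.4, 92.5 and 72.6 TPM in sham prednisone hearts and at 25.0, 23.0 and 42.6 TPM in MI prednisone hearts. Atp2a2 was at 2825, 2967 and 3016 TPM in the former and at 1144, 926 and 1752 TPM in the latter. The third MI prednisone heart was the highest of its group in all 10 genes. Pln, which read 2662, 2577 and 2858 TPM in sham prednisone hearts, read 1472, 1343 and 2047 TPM after MI with the drug.

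The partners of the release channel at the junction with the T-tubule had log2 changes of -0.47 to -0.67 beside -1.44 for the channel itself. After the length correction these became -0.54 for Trdn, -0.38 for Jph2 and -0.45 for Asph beside -0.86 for Ryr2, and the difference between the genes was not tested. Trdn, triadin, which anchors calsequestrin to the channel (chr10:33080554-33476709, plus strand), ranged from 171 to 194 TPM in sham prednisone hearts and from 122 to 144 TPM in MI prednisone hearts. Jph2, junctophilin 2, which holds the reticulum to the T-tubule membrane (chr2:163336242-163397993, minus strand), ranged from 121 to 135 TPM and from 63.9 to 96.7 TPM. Asph, whose short product junctin sits beside triadin (chr4:9448069-9669344, minus strand), ranged from 89.4 to 97.6 TPM and from 62.0 to 76.0 TPM. The ranges did not overlap in any of these 3 genes.

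**Figure D2:**
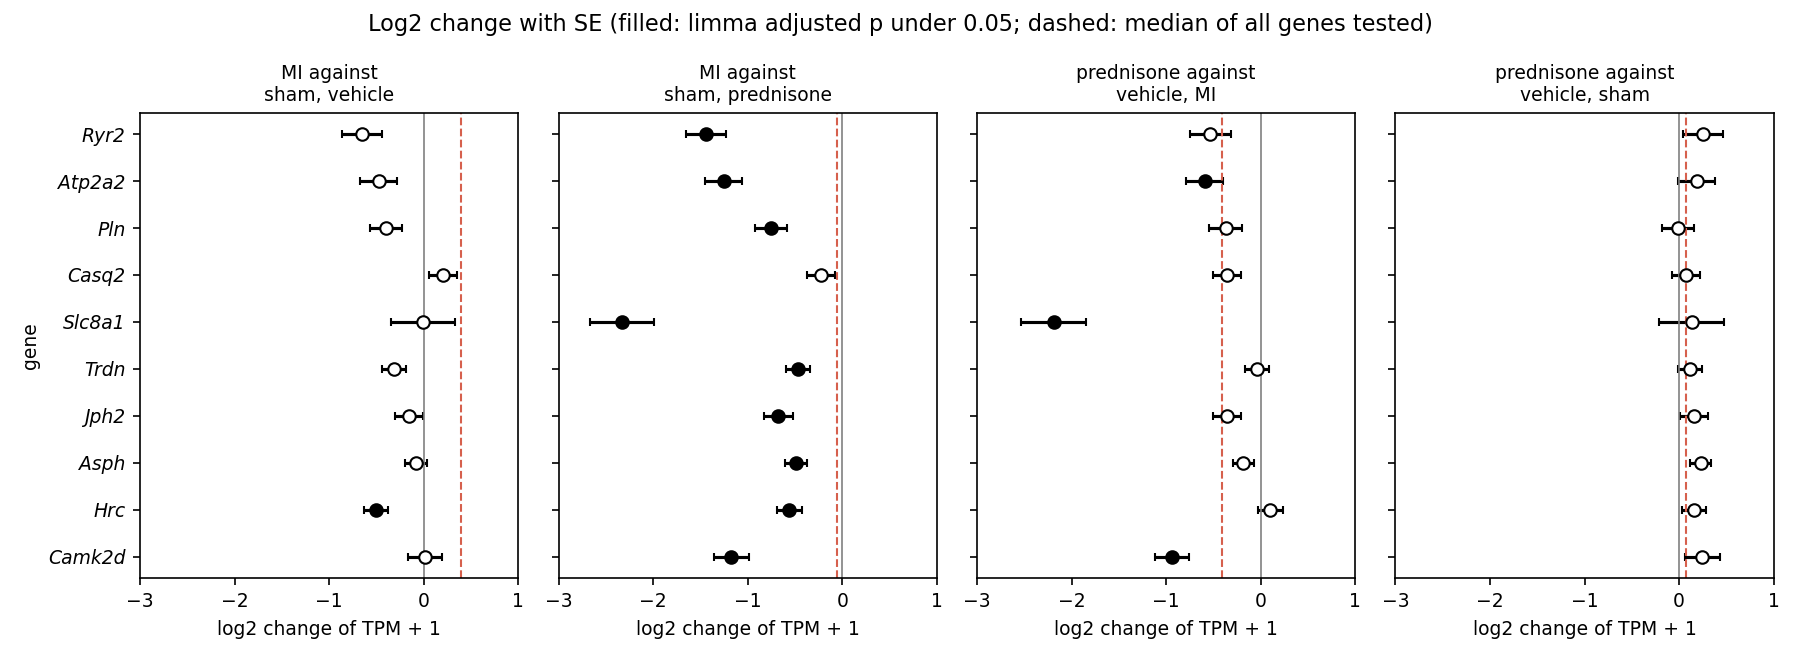
Log2 change of TPM + 1 with its standard error (x axis) for the 10 genes (y axis) in 4 comparisons, filled where the limma adjusted p was under 0.05, with a dashed line at the median of all 13158 genes tested. After MI the drug contrast (MI, prednisone against vehicle) puts Slc8a1 at -2.19 and Camk2d at -0.94, while most other members lie near the all-gene median of -0.41, and Atp2a2, filled at -0.59, reads 0.01 after correction for transcript length.

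Prednisone in infarcted hearts was compared with vehicle next, and the MI prednisone hearts are the same as in the comparison above. The exchanger and the kinase showed the largest differences. Slc8a1 (chr17:81373105-81738377, minus strand) read 46.8, 54.9 and 43.4 TPM with vehicle and 7.73, 5.45 and 21.2 TPM with prednisone. The groups did not overlap, and the log2 change was -2.19 (SE 0.34, limma adjusted p = 0.00151), which is 1.78 below the median of all genes. It was called under all 10 alternative settings, from -2.46 to -1.69, and without each mouse in turn. Camk2d read 47.6, 49.3 and 42.9 TPM with vehicle and 20.6, 18.8 and 34.8 TPM with prednisone, again without overlap, a change of -0.94 (SE 0.18, limma adjusted p = 0.00375). Relative to the all-gene median its change was -0.53, and the call was lost when libraries were rescaled by median ratios (-0.49, limma adjusted p = 0.179) or corrected for length (-0.48, limma adjusted p = 0.196).

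The third gene called lower was Atp2a2, at -0.59 (SE 0.19, limma adjusted p = 0.0329), with overlapping groups. Its value was -0.13 after median-ratio rescaling and 0.01 after the length correction, and the call was lost without MI prednisone replicate 1 or 2 or MI vehicle replicate 1 or 2. These 3 of 10 genes compare with 34.9% of all tested genes called lower, and the 2 of 10 whose groups did not overlap (Slc8a1 and Camk2d) compare with 42.6% of all genes, so neither share exceeds the background. The members' median of -0.37 lay beside -0.41 over all genes. Ryr2 at -0.53 (limma adjusted p = 0.0689), Pln at -0.37, Casq2 and Jph2 both at -0.36 and Asph at -0.18 were not called, nor were Trdn at -0.04 and Hrc at 0.10. Direction itself depended on the scale: 9 of 10 values were below 0 in TPM, 4 after median-ratio rescaling and 3 after the length correction.

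The members were also read against the structural genes of heart muscle cells. The 12 structural cardiomyocyte genes summed to 32950 to 40920 TPM after MI with vehicle and to 46700 to 51380 TPM after MI with prednisone, and 6 of the 12 were called higher with the drug. The 10 calcium cycling genes together came to 13.9%, 14.8% and 15.0% of that structural sum in sham vehicle hearts, and to 15.1%, 14.4% and 13.9% in sham prednisone hearts. After MI with vehicle the share was 13.9%, 13.2% and 12.7%, and after MI with prednisone 7.33%, 5.96% and 10.5%. All 3 MI prednisone hearts were thus below every other heart in this summed share. Most of the sum was Pln and Atp2a2, at 2728 and 2588 TPM on average in sham vehicle hearts. The 10 genes there summed to 6119 to 6906 TPM. Singly, per structural TPM, Ryr2, Atp2a2, Pln, Slc8a1, Trdn, Jph2 and Camk2d separated in the same way. Casq2, Hrc and Asph did not. The share of all genes that separated so on this scale is not given here. In MI prednisone replicate 3, Casq2 was above every sham heart and Hrc above MI vehicle replicates 2 and 3. Asph there was above sham vehicle replicate 1. Centred on the structural genes, 9 of the 10 members were called lower with prednisone after MI, all but Hrc at -0.17. Under this centring 53.6% of all tested genes were called lower, and 4 of the 10 members lay below the all-gene median of -0.68. The transcript lengths of the 2 lists were not matched, and the part of the length trend in this share was not tested.

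**Figure D3:**
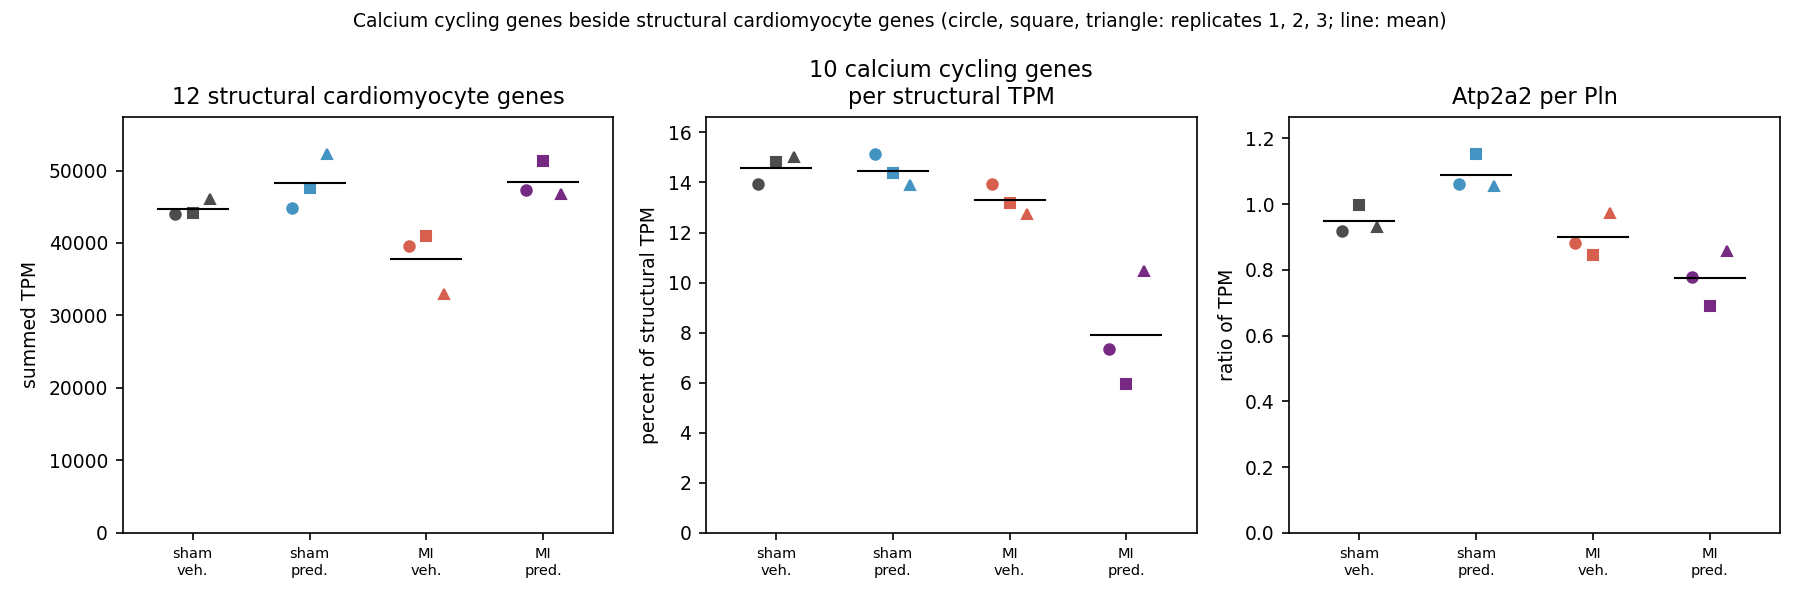
Per heart and group (x axis), the summed TPM of 12 structural cardiomyocyte genes, the summed TPM of the 10 calcium cycling genes as a percent of it, and the ratio of Atp2a2 to Pln TPM, with a line at each group mean and every y axis from 0. The percent lies between 5.96 and 10.5 in the MI prednisone hearts and between 12.7 and 15.1 in the other 9.

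In sham-operated mice prednisone moved none of the 10 genes past the threshold, where 0.114% of all tested genes were called in either direction, and none had an unadjusted p under 0.05 in limma. The changes ran from -0.01 for Pln to 0.25 for Ryr2. In Atp2a2, Asph, Hrc and Camk2d all 3 sham prednisone hearts were above all 3 sham vehicle hearts, a placement shared by 15.6% of all genes. The test of the difference between the drug's effect after MI and after sham surgery called 2 of 10 genes lower, Slc8a1 at -2.32 (SE 0.48, limma adjusted p = 0.0116) and Camk2d at -1.18 (SE 0.26, limma adjusted p = 0.0137), where 20.7% of all tested genes were called lower. Both were lost on rescaling, at limma adjusted p = 0.0704 and 0.268, and after the length correction. Without MI prednisone replicate 3 this count rose to 7, and the count for the drug after MI also rose to 7.

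The balance of pump and inhibitor was read as the ratio of Atp2a2 to Pln within each heart. It was 0.919, 0.998 and 0.931 in sham vehicle hearts and 1.06, 1.15 and 1.05 in sham prednisone hearts. After MI it was 0.881, 0.847 and 0.974 with vehicle and 0.777, 0.690 and 0.856 with prednisone. The ratio was higher in all 3 sham prednisone hearts than in any sham vehicle heart, by 0.20 on the log2 scale, and lower in all MI prednisone hearts than in any sham prednisone heart, by a log2 difference of -0.50, which was -0.15 after the length correction. Both had a p of 0.1 in the two-sided exact permutation test, the smallest that 3 hearts against 3 can give. The remaining 2 comparisons overlapped, MI against sham with vehicle at -0.08 (exact permutation p = 0.4) and prednisone against vehicle after MI at -0.22 (exact permutation p = 0.2), and the latter turned to 0.06 after the length correction. No p was adjusted over these 4 comparisons, since none could pass.

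Below the gene level, single transcripts of Atp2a2, Pln, Camk2d and Asph took a far smaller share of their gene in MI prednisone hearts than in any other group. Of the 81 rows, 46 passed the filter and 27 made up at least 5% of their gene. Prednisone after MI changed 18 of the 46 (14 lower, 4 higher), where 33.0% of all transcripts tested were called, and MI against sham with prednisone changed 22 (20 lower, 2 higher), where 22.3% were called. MI with vehicle changed 0 of 46, where 2.84% of all were called, and prednisone after sham 0 of 46, where 0.054% were. At an unadjusted p under 0.05 in limma there were 5 of 46 in each. The share of all transcripts at that unadjusted threshold is not given here. The drug's effect differed between MI and sham in 11 of 46, where 18.7% of all transcripts did.

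The SERCA2b-type transcript had the largest log2 change of the transcripts described here. Atp2a2-201 took 7.83%, 12.8% and 13.3% of the gene in sham vehicle hearts and 17.1%, 18.1% and 17.1% in sham prednisone hearts. It took 8.36%, 11.0% and 13.1% after MI with vehicle but 1.13%, 0.336% and 4.11% after MI with prednisone, below every other heart. In TPM that is 172, 213 and 209 with vehicle against 13.0, 3.12 and 71.9 with prednisone, and the log2 change was -3.62 (SE 0.75, limma adjusted p = 0.00484). Atp2a2-202, the SERCA2a-type end printed above, went from 1863, 1707 and 1380 TPM to 1083, 879 and 1648 TPM, and its change of -0.49 missed the threshold (limma adjusted p = 0.0712). The 2 transcripts have similar lengths, 4486 and 3984 bases.

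In the phospholamban gene too a minor transcript fell, while the main one took a larger share of the gene. Pln-206 made up 7.15%, 8.26% and 9.01% of Pln after MI with vehicle and 0.813%, 0.785% and 1.73% with prednisone, and its TPM fell by 3.26 on the log2 scale (SE 0.34, limma adjusted p = 0.000158). Pln-204 fell by 1.06 (SE 0.19, limma adjusted p = 0.00227), while Pln-201, the most abundant, took 57.2% to 61.4% of the gene with vehicle and 64.9% to 76.2% with prednisone. Its log2 ratio to the rest of the gene rose by 0.69 (limma adjusted p = 0.0425). That call was lost with only the groups compared (limma adjusted p = 0.124), the replicate block, no trend or a pseudocount of 0.1. Pln-205 took 22.8% to 24.2% with vehicle and 17.7% to 28.4% with prednisone. All of these carry the reading frame printed above.

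Camk2d-221, whose own coding stretches are printed above, took 13.5%, 14.3% and 18.1% of Camk2d after MI with vehicle. After MI with prednisone it was listed at 0 in 2 hearts and took 7.94% in replicate 3. Its log2 change was -2.37 (SE 0.42, limma adjusted p = 0.00212), whereas Camk2d-202 changed by -0.73 (SE 0.21, limma adjusted p = 0.0211), a call lost after median-ratio rescaling. Camk2d-223, annotated as a retained intron, was also listed at 0 in the same 2 hearts (-2.33, SE 0.56, limma adjusted p = 0.00995). A value of 0 in a TPM table can be a failed estimate as well as an absent transcript.

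Asph and Jph2 had transcripts that moved in opposite directions. Asph-220, a partial coding model, took 19.0%, 7.90% and 13.4% of Asph after MI with vehicle and 0.550%, 2.18% and 1.80% with prednisone (log2 change of TPM + 1 -2.44, SE 0.34, limma adjusted p = 0.000651). Asph-206, which encodes 207 residues, took 32.8%, 37.9% and 26.4% with vehicle and 56.8%, 51.4% and 58.3% with prednisone, and its TPM rose by 0.59 (SE 0.16, limma adjusted p = 0.0196), a call lost without MI prednisone replicate 3 or MI vehicle replicate 3. Jph2-202 rose from 5.68%, 5.16% and 4.35% of Jph2 to 27.4%, 35.9% and 12.9% (log2 change of TPM + 1 1.67, SE 0.37, limma adjusted p = 0.00686). Jph2-201 changed by -0.71 (SE 0.21, limma adjusted p = 0.0221), a call lost after median-ratio rescaling, and both Jph2 transcripts encode 696 residues.

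**Figure D4:**
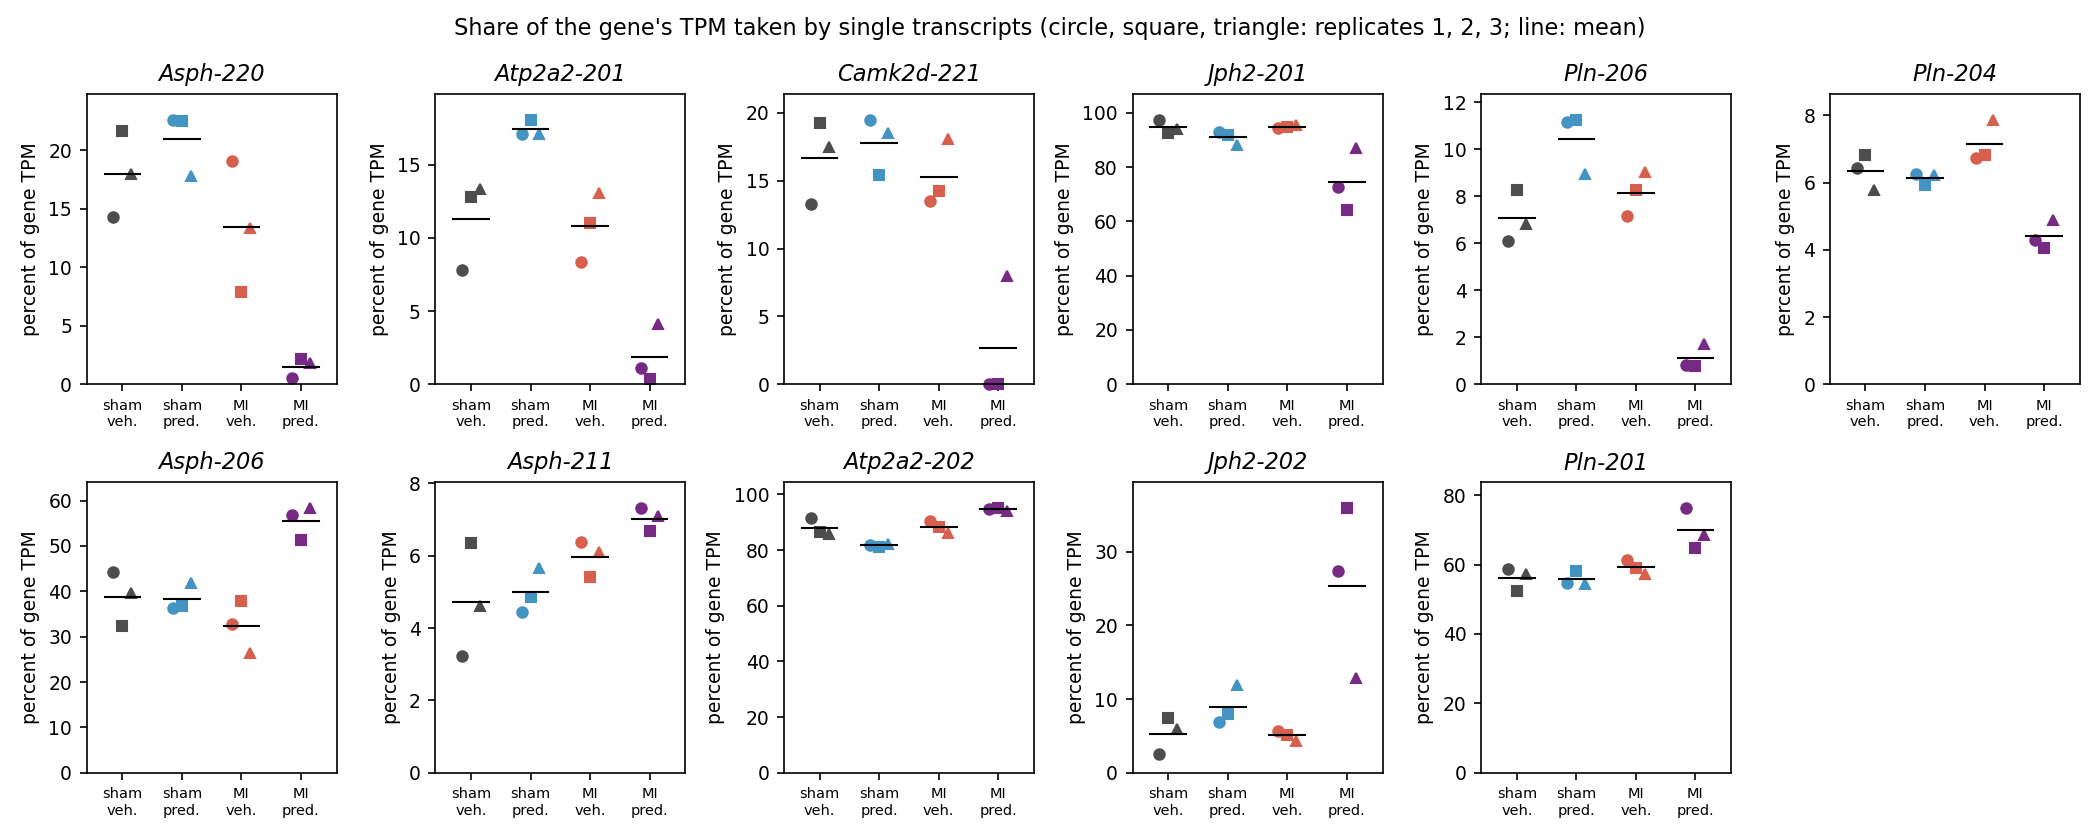
Percent of the gene's TPM (y axis, from 0) in each heart, by group (x axis), for the 11 of 27 member transcripts whose 3 MI prednisone hearts all lay outside the range of the other 9, with circles, squares and triangles for replicates 1, 2 and 3 and a line at the mean. Of all transcripts with at least 5% of a tested gene, 19.1% lay outside in the same way, 9.78% below and 9.37% above. The upper row holds the 6 that lay below, such as Atp2a2-201 and Pln-206, and the lower row the 5 that lay above, such as Jph2-202 and Asph-206.

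The split of a gene among its transcripts was tested by itself, as the log2 ratio of a transcript to the rest of its gene, which a change of library scale moves only through the pseudocount. Of 44 member transcripts tested, 20 changed with prednisone after MI (9 higher, 11 lower), where 27.4% of all transcripts tested did, and 20 in MI against sham with prednisone, where 28.2% did. MI with vehicle changed 0, where 0.0365% of all were called, and prednisone after sham 0, where 0.00457% were. At an unadjusted p under 0.05 in limma there were 1 and 5, and the share of all transcripts at that threshold is not given here. The drug's effect differed between MI and sham in 9, against 15.7%. For the drug after MI the ratio of Atp2a2-201 fell by 3.16 (SE 0.63, limma adjusted p = 0.00403), that of Pln-206 by 2.99 (SE 0.31, limma adjusted p = 0.000111) and that of Asph-220 by 2.44 (SE 0.35, limma adjusted p = 0.000721). These 3 and Camk2d-221, Asph-206, Jph2-201, Jph2-202 and Atp2a2-202 were called for the drug after MI under all 4 alternative settings and without each mouse in turn. Shares within a gene are not separate results. Jph2 has only 2 transcript rows, so Jph2-201 and Jph2-202 give 1 result with opposite signs (-2.38 and 2.38). Atp2a2-202 and Atp2a2-201 hold 86.8% and 11.9% of their gene, so theirs are nearly 1 result too.

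The Slc8a1 result rests on 1 transcript row. Slc8a1-201 made up 97.3% of the gene over all samples, and its GENCODE M21 model ends at the stop codon, with 0 bases annotated after it. Among all tested coding transcripts, the 772 with under 50 bases after the stop codon had a median log2 change of -0.50 for prednisone after MI, and the 16606 with 50 or more had -0.40. The part of this annotation in the change of Slc8a1 was not tested. Ryr2, the longest member at 16814 bases, changed by -0.53 for the drug after MI in TPM and by 0.13 after the length correction.

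Across the 12 hearts the members largely moved together, which is a description of libraries that share groups and scale. Ryr2 and Atp2a2 had a Pearson r of 0.978 and Slc8a1 and Camk2d one of 0.983 (log2 of TPM + 1, n = 12), and Trdn was most like Hrc at 0.940. Casq2 was the least like the members' mean (r = 0.633), whereas Atp2a2 was closest to it (r = 0.990). Among the 8106 genes that averaged 5 TPM or more, the 5 most like the members' mean were Fsd2 (0.993), Txlnb (0.991), Cmya5 (0.990), Nnt (0.990) and Vwa8 (0.987). Of these, Cmya5 encodes myospryn, a muscle protein of the Z-disc and costamere, and Nnt encodes a mitochondrial transhydrogenase. Fsd2 averaged 70.6 TPM in sham vehicle, 84.2 in sham prednisone, 61.9 in MI vehicle and 41.8 in MI prednisone hearts, the same order as Atp2a2.

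The promoters of the members were searched for 3 motifs on both strands in RefSeq windows of the GRCm38.p6 assembly from 250 bases before to 50 bases after the start. Atp2a2, Trdn and Asph had no matched window and were not searched. Windows were matched for 7 of the 10 genes, with 8 promoters. The glucocorticoid response element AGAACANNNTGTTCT was in none of them and in 0.00913% of all 32851 promoters, and its half-site AGAACA, which is part of it, was in that of Pln alone and in 19.0% of all. The E-box CACGTG, present in 7.15% of all promoters, was in none of the 8.

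Other genes of calcium handling were taken from a list of 70, of which 62 passed the filter. After MI with vehicle 14 were higher and 3 lower (all genes 15.1% higher and 0.904% lower), and after rescaling 1 and 3. The all-gene shares after rescaling are not given here or below. Rcan1, an inhibitor of calcineurin, was at 26.4 ± 1.79 TPM in sham and 63.9 ± 18.2 TPM in MI hearts (SD, n = 3), a rise of 1.21 in log2 with a limma adjusted p of 0.00704, a call lost after rescaling (0.76, limma adjusted p = 0.0659). Gm34302, which RefSeq lists as Strit1 and which encodes the small SERCA activator DWORF, was at 168 ± 9.66 TPM in sham and 79.4 ± 30.1 TPM in MI hearts, a fall with a log2 change of -1.14 (limma adjusted p = 0.014). It was called after rescaling as well (-1.59, limma adjusted p = 0.0321), but not after the length correction, in a fit of only the groups compared, or without sham vehicle replicate 1 or 3.

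Among prednisone-treated mice, MI lowered 22 of the 62 and raised 2 (all genes 14.1% lower and 2.73% higher). The largest falls were in Prkar2a, a regulatory chain of protein kinase A (-1.50, limma adjusted p = 0.00121), Akap6, which tethers that kinase near the release channel (-1.35, limma adjusted p = 0.00219), Camk2a (-1.32, limma adjusted p = 0.00219) and the L-type calcium channel chains Cacna2d1 (-1.28, limma adjusted p = 0.00124) and Cacnb2 (-1.20, limma adjusted p = 0.00202). All 5 were also called after rescaling and after the length correction.

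Prednisone after MI lowered 28 of the 62 and raised 3 (all genes 34.9% lower and 2.5% higher), and the counts became 8 and 10 after rescaling. The genes raised included 2 small peptides that act on SERCA. Sln, sarcolipin, a SERCA inhibitor, stood at 31.9 ± 21.4 TPM with vehicle and 104 ± 15.5 TPM with the drug, a rise of 2.03 in log2 (SE 0.59, limma adjusted p = 0.0217), and Gm34302 rose by 0.91 (SE 0.23, limma adjusted p = 0.0105) to 144 ± 22.4 TPM, where sham prednisone hearts had 142 ± 7.34 TPM. Both rises were called after rescaling, and neither was in a fit of only the groups compared (limma adjusted p = 0.0828 for Sln). The rise of Gm34302 was also lost after the length correction, and that of Sln without a filter (limma adjusted p = 0.0534) and without MI prednisone replicate 1 or 2. Sln read 44.9, 7.14 and 43.6 TPM with vehicle, and without MI vehicle replicate 2, the low one, its rise was 1.20 (limma adjusted p = 0.0334). Sln is also an atrial gene. The 5 atrial markers, Sln among them, summed to 4344 to 6181 TPM in MI prednisone hearts against 2811 to 4115 in MI vehicle hearts. They summed to 854 to 2499 TPM in sham vehicle and 1993 to 2700 in sham prednisone hearts. The sum did not follow the single markers: with vehicle it was higher after MI, while the median marker change was -0.77. With prednisone after MI that median was 1.99. The part of atrial tissue in the rise of Sln was not tested. Prkar2a, Atp2b1, a plasma membrane calcium pump, and Itpr1, the inositol trisphosphate receptor, fell by 1.31, 1.22 and 1.12 (limma adjusted p = 0.000964, 0.000801 and 0.00151) and were called after rescaling too. The drug's effect differed between MI and sham in 22 of the 62 (21 lower, 1 higher), where 20.7% of all genes were lower and 0.54% higher.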

How the data were processed

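The authors deposited 1 table of TPM per transcript with a gene symbol for each row. Trimmomatic, HISAT2, kallisto and the mm10 build are named in the submitters' processing notes, without versions or roles, and the annotation release is not given in the sources used here. Stranded mRNA libraries were made from column-purified RNA, per the labels' protocols. Every deposited column sums to 1000000 TPM, so depth is unknown and precision rests on 3 mice per group.

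Transcript TPM were summed by symbol, and genes or transcripts that reached 1 TPM in 3 or more of 12 samples were kept. Log2(TPM + 1) was fitted over all features and all 4 groups with limma 3.58.1 in R 4.3.3, with an intensity trend and Benjamini-Hochberg adjustment over all of them. The effect of MI was tested with each treatment, that of prednisone after each kind of surgery, and the interaction of the 2. Transcript shares were fitted as log2((transcript TPM + 1)/(rest of gene + 1)) for 21893 transcripts. Fold changes on this scale understate the change of low features. The Atp2a2 to Pln ratio had an exact permutation test (scipy 1.17.1). The fitting code was tested on simulated data.

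Alternatives were a pseudocount of 0.1, no filter, median-ratio rescaling, a loess correction (span 0.5) for transcript length, centring on structural cardiomyocyte genes, removal of mitochondrial and globin rows, no trend, only the groups compared, a replicate block, and leaving out each mouse. Of the 81 member rows, 79 matched GENCODE M21 with the same version and 2 with another. All 10 members were named, with transcripts of at least 5% of their gene, up to 10 called genes per comparison from the list of other calcium-handling genes (mean of at least 5 TPM), and the 5 genes most like the members' mean. The members and lists were chosen with earlier results of these data known, so their counts are no independent support.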

Additional observations from a re-analysis of the deposited data

Results flagged for a closer look

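The effect of prednisone after MI differed from its effect after sham surgery, by the interaction term in limma, in 2 of the 10 genes, where 20.7% of all tested genes were called lower. The difference of the log2 changes was -2.32 for Slc8a1 (adjusted p = 0.0116) and -1.18 for Camk2d (adjusted p = 0.0137). Neither was called after median-ratio rescaling (adjusted p = 0.0704 and 0.268) or after the length correction.

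Among single transcripts that made up at least 5% of their gene, the same term was called in 8 of 27. Of all transcripts tested, with no 5% limit, 18.7% were called. It was -4.46 for Atp2a2-201 (adjusted p = 0.0172) and -3.81 for Pln-206 (adjusted p = 0.00124). It was -2.88 for Asph-220 (adjusted p = 0.00408), -2.69 for Camk2d-221 (adjusted p = 0.0125) and -2.65 for Camk2d-223 (adjusted p = 0.0407). Slc8a1-201 had -2.39 (adjusted p = 0.0128), Trdn-206 had -1.47 (adjusted p = 0.0255) and Pln-204 had -0.994 (adjusted p = 0.0269).

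For the share of a transcript in its gene the term was called in 7 of the transcripts with at least 5% of their gene. Ryr2-201 and Hrc-201 were not in this test. Of all transcripts tested for shares, with no 5% limit, 15.7% were called. It was 1.91 for Atp2a2-202 (adjusted p = 0.00567) and 1.38 for Asph-206 (adjusted p = 0.0264), the SERCA2a-type and the 207-residue transcripts. It was -3.93 for Atp2a2-201 (adjusted p = 0.0142), -3.61 for Pln-206 (adjusted p = 0.000829) and -2.71 for Asph-220 (adjusted p = 0.00561). Camk2d-221 had -1.72 (adjusted p = 0.0335) and Trdn-206 had -1.70 (adjusted p = 0.0406). Both calls were lost with a pseudocount of 0.1 (limma adjusted p = 0.0731 and 0.0578). That of Trdn-206 was also lost with the replicate block (limma adjusted p = 0.0642).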

How the results depend on the processing

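The counts of genes called among the 10 depended on scale and on single hearts. The shares of all genes called under each alternative are not given beside these counts. For MI against sham with vehicle (1 called) the length correction gave 2, and the replicate block (alone or with the length correction), centring on structural genes, no filter and a fit of only the groups compared each gave 0. For MI against sham with prednisone (9) the length correction and median-ratio rescaling each gave 4, and the length correction with the block 2. For prednisone after MI (3), centring gave 9, and median-ratio rescaling, a fit of only the groups compared and the length correction, with or without the block, each gave 1. For the interaction (2), rescaling and the length correction, with or without the block, gave 0, and removal of mitochondrial and globin rows 1. Prednisone after sham stayed at 0 under every alternative run. Leaving out 1 mouse gave 0 to 3, 5 to 10, 2 to 7 and 2 to 7 in the first 4. For transcripts, the counts of 22 for MI with prednisone and 18 for prednisone after MI became 13 and 11 with the length correction and the block, and a fit of only the groups compared also gave 11 in the latter. The transcript interaction (11) gave 7 with the length correction, 4 with the block added and 7 without a filter. Leaving out 1 mouse gave 0 to 2 transcripts for MI with vehicle and 8 to 20 for the interaction, the 20 without MI prednisone replicate 3. For shares of prednisone after MI (20), only the groups compared gave 12 and a pseudocount of 0.1 gave 13. Leaving out 1 mouse gave 12 to 21 shares for MI with prednisone, 12 to 24 for prednisone after MI and 6 to 17 for the interaction. The highest of each was without MI prednisone replicate 3. The gene counts for prednisone after MI and for the interaction were 5 and 4 without MI vehicle replicate 3. After the length correction Atp2a2 for prednisone after MI turned from -0.59 to 0.0121, with or without the block, and the log2 Atp2a2 to Pln ratio from -0.22 to 0.0608. The cause was not tested. Of 15 gene results called, 3 were called under every alternative and 9 without each mouse in turn. For transcripts these numbers were 16 and 25 of 36, and for shares 21 and 18 of 29. Shares were run under 4 alternatives only, without rescaling, centring or the length correction. Their count under every alternative is therefore not comparable with those of genes and transcripts. TPM carries no depth, so no detection limit can be given. The replicate numbers belong to different animals and share only a number: deviations of same-numbered samples correlated at -0.37 to 0.00 on average.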
